A study of Mus musculus with 8 samples.

Results

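The insulin-like growth factor (IGF) axis was followed through 8 mouse prostate tumors as 10 genes: the ligands Igf1 and Igf2, the receptors Igf1r, Igf2r and Insr, and the binding proteins Igfbp2, Igfbp3, Igfbp4, Igfbp5 and Igfbp6. The genes were taken by name from 38115 genes listed in the count data. No expression value was a criterion, but the list was chosen with earlier results of these data known. All 10 were found. Tumors grew from Myc-CaP, a prostate cancer line of mice that carry a Myc transgene in the prostate, after the cells had been placed in the anterior prostate of male FVB mice. There were 2 primary tumors and 2 metastases of the androgen sensitive line (Myc-CaP/AS, called AS below) and 2 primary tumors and 2 metastases of the castrate resistant line (Myc-CaP/CR, called CR). Hosts were intact or surgically castrated before injection, but the host of each tumor is not given, and neither are the age of the mice, the organ of each metastasis or the primary tumor to which a metastasis was matched. The numbers in names such as primary AS1 only tell tumors apart. Each phenotype is 1 cell line, so phenotype, line, host and, as far as the library identifiers tell, series of libraries cannot be told apart. Whether the tumors came from separate mice is not stated, so p-values measure the spread between these tumors. The labels call each metastasis matched, but the phenotype tests treated all 8 tumors as independent. If a primary tumor and a metastasis shared a mouse, those p-values can be too small.

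IGF1 and IGF2 are secreted peptides that signal through the IGF1 receptor and, in part, the insulin receptor, both of which are tyrosine kinases upstream of the IRS adaptors and the PI3K-Akt arm. IGF2R binds IGF2 and delivers it to lysosomes without a kinase of its own. The IGF binding proteins hold the ligands outside the cell and are in turn cleaved by proteases such as the pappalysins, and in the prostate both the ligands and several binding proteins are known to vary with androgen.

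Values are CPM, read counts scaled to the same effective library size in every tumor. Total counts per tumor ranged from 61237285 to 91886163 in AS and from 20905806 to 76887592 in CR tumors. Metastatic AS2 and metastatic CR2 stood apart, with counts on 27673 and 27438 genes against 22232 to 23989 genes in the other 6 tumors. Results of members that rest on them are given with and without them. For other pathway genes only the number called without both is given. No libraries held identical counts. Among the epithelial markers described here, Krt8 lay between 36.4 and 710.4 CPM, whereas Epcam, Krt18 and Cdh1 were at most 0.279, 0.418 and 0.606 CPM, so of these only Krt8 was present at more than a trace. In bulk RNA, fewer cells of a type and less RNA per cell cannot be told apart.

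Igfbp5 was the gene of the axis that differed by phenotype. It lies on the minus strand of mouse chromosome 1 (mm10, GENCODE M21, chr1:72857932-72874884), 5.46 kb from the end of Igfbp2, which is on the plus strand at chr1:72824503-72852474. Because it carries the phenotype difference, the 250 bases before its RefSeq start are shown (GRCm38.p6, chr1:72874866-72875115, minus strand, 5′ to 3′), with the letters TATTTAA, an AT-rich word close to the TATA box, in capitals.
Igfbp5: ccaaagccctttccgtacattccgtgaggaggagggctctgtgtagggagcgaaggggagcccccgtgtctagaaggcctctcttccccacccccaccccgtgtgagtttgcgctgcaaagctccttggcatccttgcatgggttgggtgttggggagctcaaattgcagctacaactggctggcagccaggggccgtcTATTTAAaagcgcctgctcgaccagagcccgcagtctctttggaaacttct
The capitals begin at position -51 from the RefSeq start. That start lies inside the GENCODE span given above, so the last printed bases fall within that span. The position therefore depends on the annotation used. That word was picked after this sequence had been seen, and 4.51% of 32851 RefSeq promoter windows of 300 bases (250 before and 50 after the start) hold it on either strand. Further words searched for on both strands were TATAAA (13.6% of windows), GGGCGG (35.7%), CACGTG (7.15%) and AGAACA (19%). The Igfbp5 window held 0 of them. Of the other members with a window, Igf2r held CACGTG at positions -48 and -7 and GGGCGG at 3 positions, Igf1r held GGGCGG at -26 and -43, and Igfbp4 held TATAAA at -28. Igfbp2 held CACGTG at -142, AGAACA at -206 and GGGCGG at 3 positions, the windows of Igf2 held GGGCGG at 3 positions and AGAACA at -85, and Igfbp6 held TATAAA at -148 on the reverse strand. Igf1 and Igfbp3 held none of these words. Windows were found for 9 of the 10 members and Insr had none. A match is a description of letters and not a binding site.

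Igfbp5, a secreted binding protein with high affinity for both IGFs, was higher in every CR tumor than in any AS tumor. Its level was 119.9 CPM in primary AS1, 44.2 CPM in primary AS2, 44.6 CPM in metastatic AS1 and 13.4 CPM in metastatic AS2. It was 352 CPM in primary CR1, 1797 CPM in primary CR2, 1633 CPM in metastatic CR1 and 1285 CPM in metastatic CR2. The groups did not overlap, and the lowest CR tumor was 2.94-fold above the highest AS tumor. The mean was 1267 ± 646 CPM in CR tumors and 55.5 ± 45.3 CPM in AS tumors (SD, n = 4 each). With tumor type as a covariate, edgeR's quasi-likelihood test gave a log2 fold change of 4.68 (SE 0.76), which is 25.7-fold (95% interval 7.79 to 84.6), with a Benjamini-Hochberg adjusted p of 0.00978 over 17104 genes. The ratio of CR to AS means was 13.1 among primary tumors and 50.3 among metastases.

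The call did not hold in every subset. With primary tumors alone the log2 fold change was 3.71 with an adjusted p of 0.325, and with metastases alone it was 5.66 with an adjusted p of 0.0188 (edgeR). Without metastatic AS2 and metastatic CR2, the libraries with the most genes counted, it was 4.20 with an adjusted p of 0.0666. Leaving out any single tumor kept the call, with log2 fold changes from 4.20 to 5.20 and adjusted p from 0.00111 to 0.0464.

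Stromal cells can also make Igfbp5, and the summed levels of their markers overlapped between the phenotypes. The summed level of 7 fibroblast markers was 59.4 to 93.6 CPM in AS and 59.9 to 112 CPM in CR tumors. For 5 smooth muscle markers it was 9.88 to 33.8 CPM in AS and 6.34 to 17.3 CPM in CR tumors. None of these 12 genes passed the test by phenotype, against 12.2% of all tested genes called in either direction. The median log2 fold change was -0.01 over the fibroblast list and -0.82 over the smooth muscle list. The part of stromal cells in the Igfbp5 result was not tested. Of the epithelial list 1 of 4 tested genes passed and the other 3 did not. It was Krt8, at 36.4 to 168 CPM in AS and 264 to 710.4 CPM in CR tumors. Krt18, Epcam and Cdh1, all at a trace, overlapped between the phenotypes, so Krt8 does not speak for its list. The part of Krt8 in the Igfbp5 result was not tested.

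**Figure D1:**
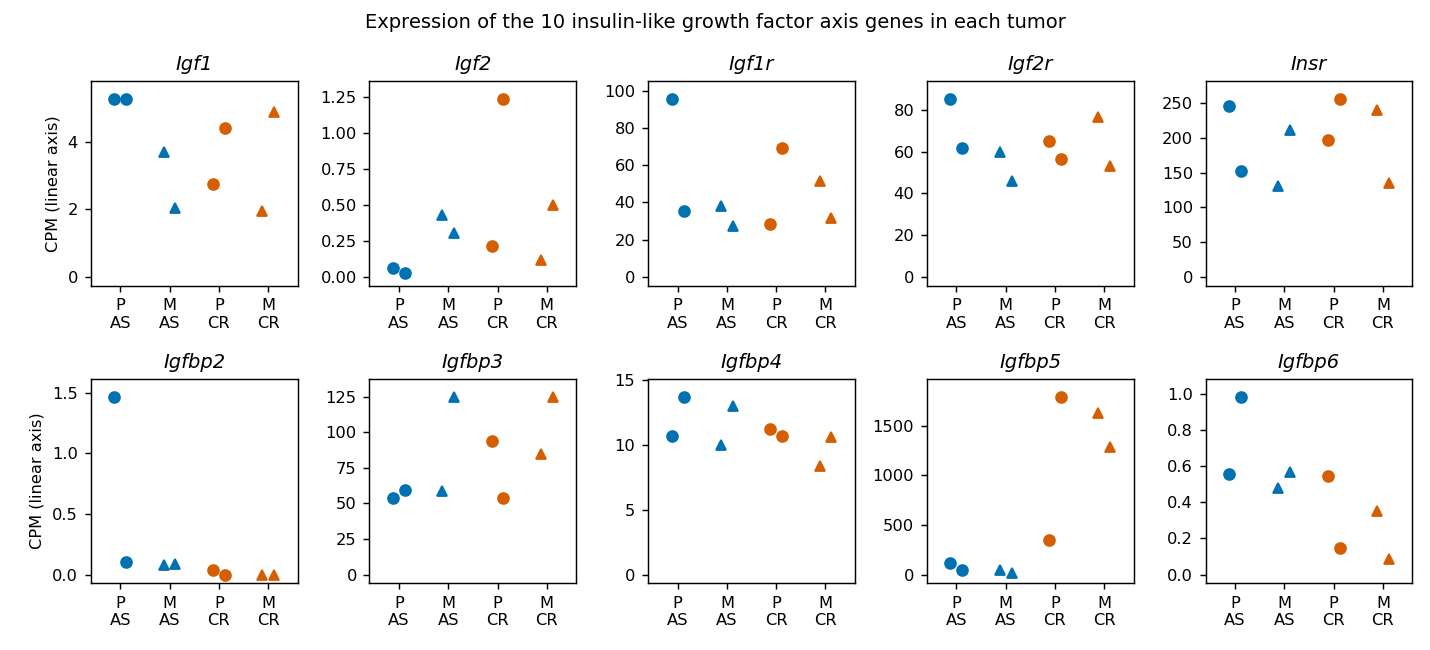
CPM of each gene of the axis (y axis, linear, own scale per panel) in the 8 tumors, grouped on the x axis as primary (P, circles) or metastatic (M, triangles) AS (blue) or CR (orange) tumors, 1 point per tumor. Igfbp5 in CR tumors sits between 352 and 1797 CPM, above all AS tumors (13.4 to 119.9 CPM), while all others but Igfbp2 overlap between phenotypes.

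Igfbp5 was the 1 member called of 9 tested between CR and AS tumors, and it was called higher. In the background, 6.16% of all tested genes were called higher and 6.01% lower, 12.2% in either direction. Likewise 1 of 9 tested members did not overlap between phenotypes, against 18.9% of all tested genes. The median log2 fold change was 0.01 over the 9 members and -0.01 over all genes.

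**Figure D2:**
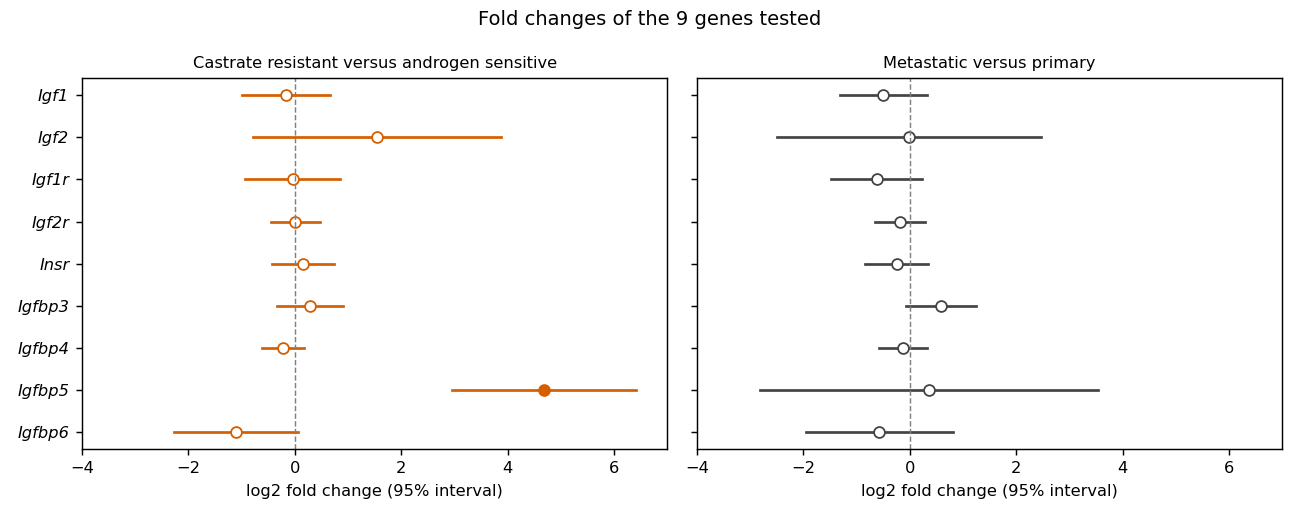
Log2 fold change (x axis, dot) with its 95% interval (line) for the 9 tested genes of the axis (y axis), CR versus AS at left and metastatic versus primary at right. Filled dots have an adjusted p under 0.05, and the only one is Igfbp5 at left, at 4.68.

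The ligand genes were expressed at low levels. Igf1, the growth hormone dependent ligand, was 5.28 and 5.27 CPM in the primary AS tumors, 3.7 and 2.05 CPM in the metastatic AS tumors, 2.76 and 4.41 CPM in the primary CR tumors and 1.96 and 4.9 CPM in the metastatic CR tumors. The phenotypes overlapped, with a log2 fold change of -0.16 (SE 0.37). Igf2, the imprinted fetal ligand, rested on 2 to 34 reads per tumor. It was 0.0638 CPM in primary AS1, 0.0285 CPM in primary AS2, 0.431 CPM in metastatic AS1 and 0.304 CPM in metastatic AS2. In CR tumors it was 0.218 CPM in primary CR1, 1.24 CPM in primary CR2, 0.117 CPM in metastatic CR1 and 0.502 CPM in metastatic CR2. Both AS metastases were therefore above both AS primaries, whereas in CR tumors the primary and metastatic values overlapped. Its phenotype difference was 1.54 on the log2 scale (SE 1.03, adjusted p 0.35, edgeR). Of the windows of read length in its longest transcript, 77.2% share sequence with other annotated genes, mostly Gm49394. That gene overlaps Igf2 on the same strand and is not among the genes counted, so sequence shared with it need not cost Igf2 reads. The share with other genes alone was not computed.

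The receptors were present in every tumor and overlapped between phenotypes. Insr, the insulin receptor, was 246 CPM in primary AS1, 152 CPM in primary AS2, 130.3 CPM in metastatic AS1 and 211 CPM in metastatic AS2. It was 197 CPM in primary CR1, 256 CPM in primary CR2, 240.2 CPM in metastatic CR1 and 135 CPM in metastatic CR2. The log2 fold change by phenotype was 0.16 (SE 0.26), with a 95% interval from -0.42 to 0.74. Igf1r, the main signaling receptor for both ligands, was 95.6 CPM in primary AS1 but 27.2 to 38.2 CPM in the other AS tumors, and 28.5 to 69.3 CPM in CR tumors. Its difference was -0.04 (SE 0.39) on the log2 scale, and it changed sign without primary AS1 (0.38), primary CR1 (0.235) or metastatic CR2 (0.023), so no direction can be given. The summed level of the 5 smooth muscle markers was also highest in primary AS1 (33.8 CPM), where Des, Myh11 and Cnn1 were 7.96, 10.2 and 2.28 CPM against at most 1.67, 2.8 and 0.731 CPM elsewhere. Acta2 and Tagln did not stand apart there, at 6.94 and 6.41 CPM against at most 7.31 and 6.8 CPM in other tumors. Their part in its Igf1r level was not tested. Igf2r, the clearance receptor, had a narrow range, 46.1 to 85.4 CPM in AS and 53 to 76.9 CPM in CR tumors, and a log2 fold change of 0.01 (SE 0.21, 95% interval -0.46 to 0.48). Airn, the noncoding RNA antisense to Igf2r, had 0 to 15 reads per tumor. The ratio of Insr to Igf1r in CPM per kilobase of exon was above 1 in each tumor, from 3.15 in primary AS1 to 9.49 in metastatic AS2.

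Among the other binding proteins, Igfbp3, the main carrier of IGFs in blood, had the highest mean level per kilobase of the binding proteins in AS tumors. It was 53.6 and 59.7 CPM in the primary AS tumors, 58.4 and 125 CPM in the metastatic AS tumors, 93.9 and 53.4 CPM in the primary CR tumors and 84.4 and 125 CPM in the metastatic CR tumors. The values of 125 CPM belonged to metastatic AS2 and metastatic CR2, the 2 libraries with the most genes counted. Its log2 fold change by phenotype was 0.29 (SE 0.28). Igfbp4, a binding protein that is the best known substrate of PAPP-A, lay between 9.99 and 13.7 CPM in AS and between 8.36 and 11.2 CPM in CR tumors, a log2 difference of -0.22 (SE 0.18). Up to 16.3% of the windows of its longest transcript share sequence with other genes.

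Igfbp6, which prefers IGF2, and Igfbp2 were near the limit of detection. Igfbp6 was 0.481 to 0.984 CPM in AS tumors and 0.0837 to 0.545 CPM in CR tumors, with 2 to 69 reads per tumor. Its log2 fold change was -1.11 (SE 0.51) with an adjusted p of 0.192 (edgeR), and the groups overlapped in primary CR1. Igfbp2 had 92 reads (1.47 CPM) in primary AS1 and 6, 7 and 9 reads in metastatic AS1, primary AS2 and metastatic AS2. It had 3 reads in primary CR1 and 0 reads in the other 3 CR tumors, where a count of 0 still allows up to 3 reads, or 0.0877 to 0.149 CPM. The groups did not overlap, but 0.076 to 0.0998 CPM, the level of 3 of the 4 AS tumors, could not be told from those limits at this depth. Igfbp2 failed the low-count filter and was not tested. When each gene with at least 1 count was kept, it was called lower in CR tumors (log2 fold change -4.86, SE 1.01, adjusted p 4.86e-05, edgeR), a size that depends on how counts of 0 enter the fit and on 1 tumor with more than 9 reads.

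Per kilobase of exon, which allows levels to be compared between genes, the order of the axis differed by phenotype in 1 main place. In AS tumors the mean levels were 23.7 ± 10.8 CPM per kilobase for Igfbp3, 13.5 ± 3.87 for Insr, 9.24 ± 7.55 for Igfbp5, 6.79 ± 1.75 for Igf2r, 2.93 ± 1.87 for Igf1r and 2.68 ± 0.406 for Igfbp4 (SD, n = 4). Of neighbours in that order, Igf2r and Igf1r were apart by more than their spread and the other pairs were not. In CR tumors Igfbp5 came first at 211 ± 108 CPM per kilobase, before Igfbp3 at 28.5 ± 9.47 and Insr at 15.1 ± 3.94, and Igf2r, Igf1r and Igfbp4 followed in the same order as in AS tumors (6.76 ± 1.14, 2.69 ± 1.13 and 2.31 ± 0.284). There Igf1r and Igfbp4 lay within their spread, Igfbp3 and Insr met at its edge, and the other neighbours were apart. Igfbp6, Igf1, Igfbp2 and Igf2 had means under 0.6 CPM per kilobase in both phenotypes. The ligand mRNAs were thus among the least abundant of the axis, while receptor and Igfbp3 mRNAs were at intermediate levels.

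Summed over the 5 binding proteins, the level was 28.8 to 45.6 CPM per kilobase in AS tumors and 91.7 to 319 CPM per kilobase in CR tumors. Igfbp5 made up 48.9% of that sum in primary AS1, 24.1% in primary AS2, 25.8% in metastatic AS1 and 4.89% in metastatic AS2. In CR tumors it made up 64% in primary CR1, 93.9% in primary CR2, 90.3% in metastatic CR1 and 83.4% in metastatic CR2. Among 21171 protein-coding genes ranked by CPM per kilobase, Igfbp5 took ranks from 1366 to 7585 in AS tumors and from 76 to 422 in CR tumors.

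**Figure D3:**
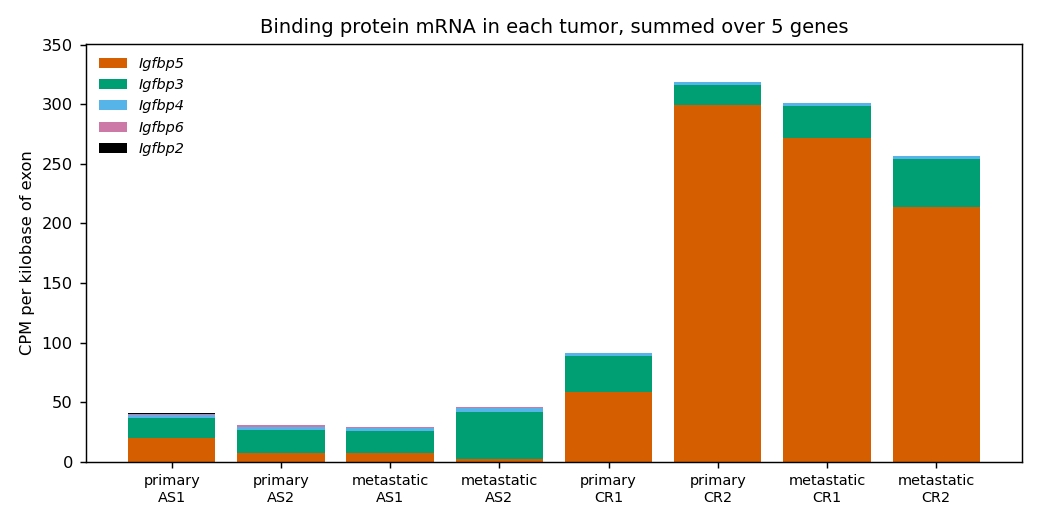
CPM per kilobase of exon (y axis) of the 5 binding protein genes, stacked, in each tumor (x axis). The CR bars reach 91.7 to 319 and are mostly Igfbp5, the AS bars reach 28.8 to 45.6 and are mostly Igfbp3 except in primary AS1.

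Metastases and primary tumors were compared next, the comparison for which the study collected the samples. No member was called (0 of 9 by edgeR's quasi-likelihood test and 0 by DESeq2), and neither was any gene of the 17104 tested (0%). At an unadjusted p under 0.05 there were 0 members, against 459 of the 17104 genes (edgeR). That fit held no term for phenotype, so differences by phenotype entered its spread. With phenotype as a covariate 1146 of the 17104 genes were under 0.05 unadjusted, and 0 were called (edgeR). The paper, which used DESeq and a different number of primary tumors, reported genes that differed in this comparison. No member separated the 4 metastases from the 4 primary tumors, against 1.7% of tested genes that did. Igfbp3 had the smallest p of the 9, at 98.2 ± 32.7 CPM in metastases and 65.1 ± 19.4 CPM in primary tumors (SD), a log2 fold change of 0.59 (SE 0.29, 95% interval -0.07 to 1.25, adjusted p 0.997, edgeR). Without metastatic AS2 and metastatic CR2, the tumors at 125 CPM, the log2 fold change of Igfbp3 was 0.13 (SE 0.32). Igf1r was 37.1 ± 10.6 CPM in metastases and 57.2 ± 31.1 CPM in primary tumors, a log2 fold change of -0.62 (SE 0.38). It was -0.26 without primary AS1, the tumor with the highest Igf1r, and -0.35 without metastatic AS2 and metastatic CR2. Igfbp5 was 0.36 higher on the log2 scale with an SE of 1.42, since both tumor types hold AS and CR tumors. Its sign depended on the fit: with phenotype as a covariate the value was -0.53.

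A test of whether the metastatic difference itself depended on phenotype called no member either (0 of 9, against 0% of 18889 genes, edgeR). At an unadjusted p under 0.05 the background was 2.74%, and 1 member, Igf2, was below it. For Igf2 the metastatic difference was 2.94 on the log2 scale (SE 1.11) in AS tumors and -1.22 (SE 1.02) in CR tumors, and the interaction was -4.16 (SE 1.51) with an adjusted p of 0.964 by edgeR. These values rest on the 2 to 34 reads given above. For Igfbp5 the metastatic difference was -1.50 (SE 0.83) in AS and 0.43 (SE 0.81) in CR tumors, and the interaction was 1.93 (SE 1.16, adjusted p 0.964, edgeR).

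Of 39 further genes of the pathway, 33 were tested between CR and AS tumors, and 4 were called higher, 3 lower and 26 not, against the 6.16% and 6.01% of all genes given above. The median log2 fold change of the list was 0.02, against -0.01 over all genes. Ins1, Ins2, Igfbp1, Igfbpl1, Insrr and Irs4 were too low to test.

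Of the 5 proteases of the binding proteins and their inhibitors 1 was called higher and none lower, and of 2 other binding proteins tested 1 was called higher. Pappa2, a pappalysin that cleaves IGFBP5 and IGFBP3, was 0.0957, 0.185, 0.139 and 0.353 CPM in primary AS1, primary AS2, metastatic AS1 and metastatic AS2. It was 1.68, 1.39, 11.6 and 1.59 CPM in primary CR1, primary CR2, metastatic CR1 and metastatic CR2. The groups did not overlap, and the log2 fold change was 4.14 (SE 0.70, 17.6-fold, adjusted p 0.0108, edgeR), but metastatic CR1 was far above the other CR tumors. Without that tumor the log2 fold change was 3.12. Igfals, the acid labile subunit of the circulating ternary complex with IGFBP3 or IGFBP5, was 0.185 to 0.684 CPM in AS and 0.837 to 5.16 CPM in CR tumors (log2 fold change 2.53, SE 0.70, adjusted p 0.0477, edgeR). The CR tumors were split. Primary CR1 and metastatic CR1 were 5.16 and 4.97 CPM, whereas primary CR2 and metastatic CR2 were 1.04 and 0.837 CPM, from 21 and 20 reads. Pappa, the relative of Pappa2, was 0.317 to 0.998 CPM in AS and 0.292 to 0.795 CPM in CR tumors and did not pass. Htra1, a secreted protease on the same list and named after its values were seen, was 371 to 394 CPM in AS and 84.6 to 344 CPM in CR tumors, without overlap, and did not pass (log2 fold change -1.15, SE 0.36, adjusted p 0.0714, edgeR).

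Among adaptors, 1 of 6 tested genes was called, and it was higher. Irs1, the docking protein of both receptors, was 1.95 to 2.66 CPM in AS and 4.13 to 8.1 CPM in CR tumors, a log2 fold change of 1.34 (SE 0.27, adjusted p 0.0181, edgeR). Irs2, its close relative, was 15.7 to 43.9 CPM in AS and 10.4 to 19.8 CPM in CR tumors and did not pass (log2 fold change -0.76, adjusted p 0.165, edgeR). Foxo1, a transcription factor held in the cytoplasm by Akt, was 7.46 to 16 CPM in AS and 11.8 to 47 CPM in CR tumors, groups that overlapped, with a log2 fold change of 1.52 (SE 0.41, adjusted p 0.0441, edgeR). It was the 1 gene called of the 12 in the PI3K-Akt arm, which include Pik3ca, Akt1 and Mtor.

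Igf2bp2, an RNA-binding protein named for its binding to Igf2 mRNA, had the smallest p of the list. It was 12.9, 8.8, 11.8 and 16.6 CPM in primary AS1, primary AS2, metastatic AS1 and metastatic AS2, and 1.31, 1.78, 3.68 and 2.3 CPM in the CR tumors in that order. The groups did not overlap and the log2 fold change was -2.53 (SE 0.28, adjusted p 0.00284, edgeR). Of 4 genes tested in the growth hormone arm 2 were called, both lower, and 2 were not. The called genes were Stat5a and Stat5b, which carry the growth hormone signal to Igf1 in liver. Stat5a was 24 to 43.9 CPM in AS and 8.41 to 17.1 CPM in CR tumors (log2 fold change -1.09, SE 0.24, adjusted p 0.0256, edgeR). Stat5b was 51.7 to 70.4 CPM in AS and 29.9 to 39.9 CPM in CR tumors (-0.77, SE 0.15, adjusted p 0.0191, edgeR). H19, the noncoding RNA imprinted opposite to Igf2 in the same domain, was 4.15 to 125 CPM in AS and 1.05 to 4.16 CPM in CR tumors, and did not pass (log2 fold change -3.64, SE 1.04, adjusted p 0.053, edgeR). H19 is named because of its place beside Igf2, after its values were seen. Of 4 genes tested in the group that holds Igf2bp2 and H19, 1 was called, and it was lower. Igf2bp1 of that group, also named after its values were seen, was higher but did not pass (log2 fold change 3.02, SE 0.90, adjusted p 0.0613, edgeR). Its values overlapped, at 0.0319 to 0.849 CPM in AS and 0.79 to 16 CPM in CR tumors. The log2 fold change of Igf2bp3 was 0.11 (SE 0.22).

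Most calls in this list rested on the full set of tumors. With 1 tumor left out, 2 to 8 of the 33 genes were called, 2 of them without metastatic AS1, primary AS2 or metastatic AS2, and 4 without primary AS1 or metastatic CR2. Pappa2 and Igf2bp2 stayed called in each of the 8 such fits, with adjusted p up to 0.0468 and 0.0148 (edgeR). Over all 17 alternatives Pappa2 kept its call in 15 and Igf2bp2 in 16. Irs1 lost its call in 3 of 8, without any AS tumor but primary AS1 (adjusted p up to 0.0718). Stat5b lost it in 5 of 8, without those tumors, primary CR2 or metastatic CR2 (up to 0.0667), and Stat5a in 6 of 8, also without primary AS1 (up to 0.0791). Foxo1 kept its call only without primary CR1 and Igfals only without metastatic CR2, and their adjusted p otherwise reached 0.157 and 0.189 (edgeR). With primary tumors alone 0 of the 33 were called.

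**Figure D4:**
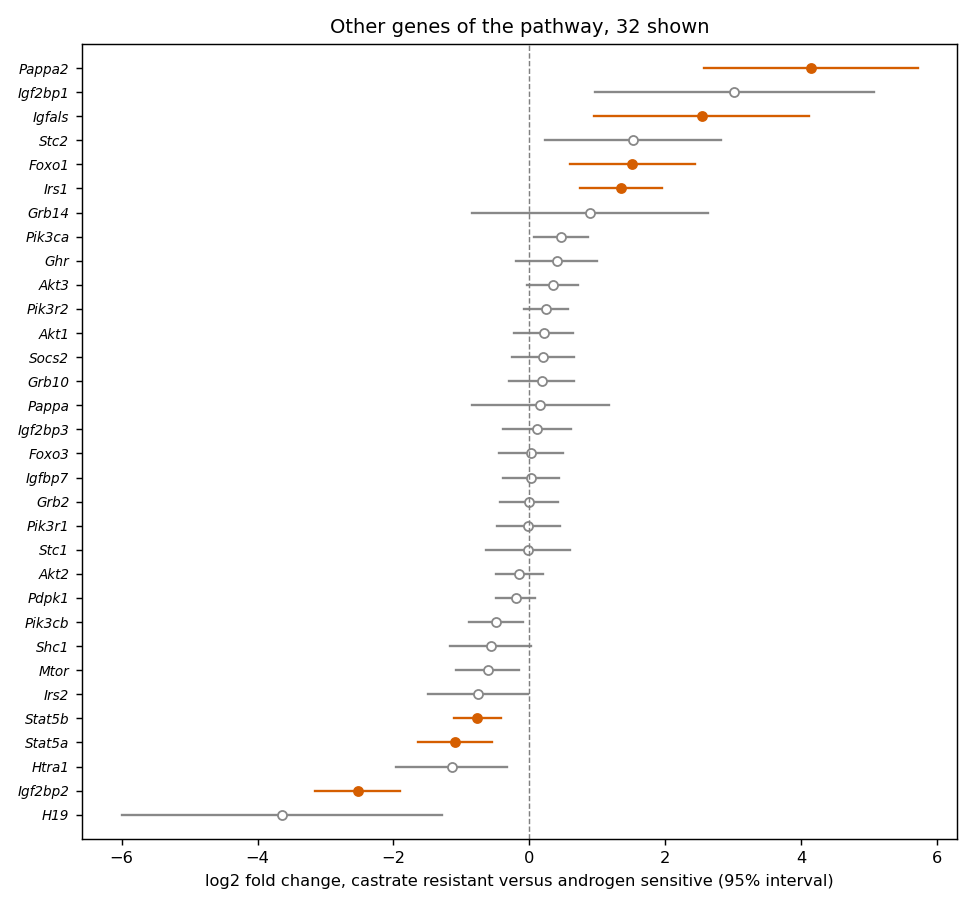
Log2 fold change of CR versus AS tumors (x axis, dot) with its 95% interval (line) for 32 of the 33 tested pathway genes (y axis). Filled orange dots mark the 7 with an adjusted p under 0.05, from Igf2bp2 at -2.53 to Pappa2 at 4.14, and open grey dots the other 25 shown.

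Members did not vary together as a block. For each tested member the 2 most similar of 13665 protein-coding genes were taken by Pearson correlation of log2(CPM + 1) over the 8 tumors, as a description of tumors that also share depth and phenotype. For Igfbp5 these were Setd6 (r = 0.975) and Ppp3ca (r = 0.974), for Igf1r Chd8 (0.986) and Syvn1 (0.984), and for Igf2r Acacb (0.984) and Gnat2 (0.92). Of the genes described here, Insr was most like Zfp532 (0.936), Igf1 like Plxna4 (0.94) and Tgtp1 (0.923), and Igf2 like Taf5 (0.979) and Osr1 (0.954). Among these genes Igfbp3 was most like Rarres1 (0.944), Igfbp4 like Plk3 (0.978) and 2810405K02Rik (0.944), and Igfbp6 like Ptplad1 (0.972) and Pars2 (0.964). Between members over the same 8 tumors the values ran from -0.76 for Igfbp5 with Igfbp6 to 0.67 for Igf1r with Igf2r.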

How the data were processed

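RNA from 8 tumors was sequenced after ribosomal RNA depletion as paired reads of a stranded library. The deposited values are raw read counts per gene. By the study's methods, the authors aligned to mm10 with Bowtie and kept uniquely placed reads, which lowers counts of genes with repeated sequence; the submitters' processing notes name CASAVA 1.8.2, TopHat2 2.0 and GRCm38 instead. The counting tool, strand setting and annotation release are not given in the sources used here. Coordinates and lengths came from GENCODE M21 (36343 of 38115 identifiers matched).

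Tests were run on the counts by edgeR 4.0.16 under R 4.3.3, with filterByExpr (minimum count 10), TMM, and the quasi-likelihood test with Benjamini-Hochberg adjustment at 0.05. Phenotype was tested with tumor type as a covariate, tumor type alone, and their interaction in a fit of 4 groups. CPM used TMM effective library sizes, and CPM per kilobase the union of exons. Shared sequence is an upper limit, from identical stretches inside windows of read length. DESeq2 1.42.0, other scalings, filters, subsets and the 4 possible pairings of metastases with primaries were alternatives, and leaving out metastatic AS2 and CR2 together was chosen after seeing the data. Counting error of a count of 0 was taken as 3 reads. Scripts were tested on simulated data. Members, pathway and marker lists were chosen with earlier results of these data known. Among pathway genes, up to 10 with an adjusted p under 0.05 were named. A few genes covered by these rules are not reported here. Figures used matplotlib 3.10.9.

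No tested gene of the endothelium, macrophage, lymphocyte, lung epithelium and skeletal muscle lists was called by phenotype, against 12.2% of all tested genes. Few of their genes could be tested in some lists: 5 of 5 for endothelium and macrophage, but 1 of 5 for lymphocyte. It was 1 of 4 for lung epithelium and 2 of 4 for skeletal muscle, and no adipocyte marker could be tested. Of the hepatocyte list Ttr and Fgb were called lower in CR tumors. Fgb was 3709.9 to 10060.2 CPM in AS and 87.8 to 1967 CPM in CR tumors. Ttr was 3.28 to 25.1 CPM in AS and 2.22 to 7.03 CPM in CR tumors, while Alb was at most 3.18 CPM.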

Additional observations from a re-analysis of the deposited data

Results flagged for a closer look

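Dixon's test was applied to each member in the AS, CR, primary and metastatic tumors, 40 groups of 4, and 8 times a tumor lay further from the others than its 95% limit allows. Chance would give about 1 in 20 for independent groups of normally distributed values. These groups share tumors, some mix the phenotypes and some rest on few reads, so 8 of 40 cannot be set against that rate. In AS tumors, primary AS1 stood apart for Igf1r (95.6 CPM against 27.2 to 38.2 CPM) and for Igfbp2 (1.47 CPM against 0.076 to 0.0998 CPM), and it also did for Igfbp2 among primary tumors (1.47 CPM against 0 to 0.0998 CPM). Metastatic AS2 stood apart in AS tumors for Igfbp3 (125 CPM against 53.6 to 59.7 CPM). In CR tumors, primary CR1 did for Igfbp2 (0.0363 CPM, from 3 reads, against 0 in the others), but a count of 0 in those tumors allows 0.0877 to 0.149 CPM, so this tumor cannot be told from them and the test says nothing there. Among primary tumors, primary CR2 was apart for Igf2 (1.24 CPM against 0.0285 to 0.218 CPM), primary CR1 for Igfbp3 (93.9 CPM against 53.4 to 59.7 CPM) and primary AS2 for Igfbp4 (13.7 CPM against 10.7 to 11.2 CPM). Igfbp5 showed no such tumor.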

How the results depend on the processing

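The Igfbp5 difference by phenotype kept its direction in 17 of 17 alternatives and its call in 15, with log2 fold changes from 3.71 to 5.66. Between CR and AS tumors 1 member was called, against 2 without a low-count filter (Igfbp5 and Igfbp2), 0 in primary tumors alone and 0 without metastatic AS2 and metastatic CR2. Of the pathway list 7 were called, against 12 without the filter, 4 in metastases alone, 0 in primary tumors alone, 2 without both those metastases and 2 to 8 with 1 tumor left out. Of all genes 2081 were called, against 3544 by DESeq2, 974 in metastases alone, 4 in primary tumors alone, 238 without both metastases and 481 (without metastatic AS1) to 4133 (without primary CR1) with 1 tumor left out. Subsets hold fewer tumors, and the cause of the other shifts was not tested. Without the filter the median log2 fold change of all genes by phenotype moved from -0.011 to 0.108. In the interaction, 0 members and 0 genes were called, against 1 member (Igfbp5, 1.89, adjusted p 0.0235, edgeR) and 217 genes without the filter, 2 genes by DESeq2 and 0 to 82 genes with 1 tumor left out (82 without primary CR2, 0 in the other 7), where members stayed at 0. In these fits a group of 1 tumor is assumed to vary like the other groups. Metastatic against primary tumors gave 0 called genes in 21 of 21 alternatives.

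Uncalled differences near 0 changed sign, in log2 units. By phenotype, Igf2r (0.01) became -0.076 without the filter, -0.007 without the tumor type term, -0.27 in primary tumors and -0.06 without both metastases, and Igf1r (-0.04) became 0.009 with a minimum count of 50. In metastases alone Igf1 became 0.25, Igf2 -0.28 and Igf1r 0.355. With 1 tumor left out, Igf1 ran from -0.56 to 0.04, Igf1r from -0.27 to 0.38, Igf2r from -0.15 to 0.16 and Insr from -0.012 to 0.32. Metastatic against primary, with 1 tumor left out, Igf2 ran from -0.46 to 1.68 and Igfbp5 from -0.35 to 2.14. With phenotype as a covariate Igf2 was 0.74 and Igfbp5 -0.53. In AS tumors alone they were 2.945 and -1.50, and Igf2r was 0.069 in CR tumors alone and 0.022 without both metastases. The primary to which a metastasis was matched is not given, so each of the 4 possible pairings was fitted as a block: Igf2 was 0.78, 1.09, 0.77 and 1.08 and Igfbp5 -0.47, -0.42, -0.31 and -0.26, with 0 members called. In the interaction with 1 tumor left out, Igf1r ran from -0.15 to 1.495, Igfbp3 from -0.70 to 0.38, Igfbp4 from -0.36 to 0.004, Igfbp6 from -1.73 to 1.15 and Insr from -0.63 to 0.30. With the longest transcript as length the level per kilobase moved from 0.383 to 0.538 for Igf1 and from 14.3 to 20.9 for Insr.

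The number of tumors, 4 per phenotype from 1 cell line each, limits all these comparisons, and depth limits Igf2, Igfbp2 and Igfbp6, which rest on few reads.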
